A study of Drosophila melanogaster with 6 samples.

Results

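The stretch of chromosome arm 3L from 17.55 to 18.07 Mb (FlyBase release 5) is the location of Eip74EF, at its low-coordinate end, and Eip75B, at its high-coordinate end. A region of the deposited peak list belongs to this interval if its centre, the mean of its start and end, lies within those limits. This gave 69 regions, of 795 on 3L and 3791 in the whole list. The interval was chosen by its count of regions, so its counts, widths and scores are given as descriptions and carry no test. The list names no gene, and the only gene table at hand follows release 6, a later assembly than that of the regions. The attribution of the ends to Eip74EF and Eip75B therefore rests on the location alone, and no region is placed in an exon, an intron or a promoter. The release 6 table was used only for the order of genes: it holds both genes on 3L, with 60 genes between them, of which 48 are protein coding.

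The regions come from chromatin immunoprecipitation with sequencing (ChIP-seq) in Drosophila melanogaster at WPP+12hrs, 12 hours after the white prepupal stage. There were 3 ChIP libraries, made with ab290, a polyclonal GFP antibody raised in rabbit, and 3 libraries of input DNA, the only control. Per the labels all 6 share the strain USP-GFP, the genotype PBac{y[+]-attP-3B}VK00033 and a transgene that carries the USP genomic coding region, while the labels' protocols name y; bw cn sp flies, and the sources used here do not say which of these gave the chromatin. Pupae, with no tissue or sex stated, were cross-linked in 1.8% formaldehyde for 15 min after growth at 25 °C, so the list averages over the cell types of the animal. A single list was deposited for all libraries, so no value below has an error between replicates, and the sequencing depth behind it is unknown.

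Ultraspiracle (USP) is a nuclear receptor that pairs with the ecdysone receptor EcR, and the pair binds DNA and switches target genes in response to the steroid hormone ecdysone, which times larval moulting and metamorphosis. Eip74EF and Eip75B are classical early genes of this response, first known as hormone-induced puffs of the polytene chromosomes at 74EF and 75B, and both encode transcription factors that act on later genes. Eip74EF (E74) encodes proteins with an ETS DNA-binding domain. Eip75B (E75) encodes nuclear receptors that bind heme, and E75 can repress the activity of the receptor Hr3. Both genes have several transcript forms with different start sites.

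The interval was unequally filled. The high-coordinate end, where Eip75B lies (17.95 to 18.07 Mb, 120 kb), held 44 regions that covered 35308 bp. The low-coordinate end, where Eip74EF lies (17.55 to 17.65 Mb, 100 kb), held 16 regions that covered 7726 bp. The gap of 300 kb between them held 9 regions that covered 4260 bp. The high end thus had 36.7 regions per 100 kb, the low end 16 and the gap 3.0, against 3.04 per 100 kb over the rest of 3L (726 regions). The contrast in counts between the ends rests on how closely spaced regions are counted: with regions up to 1 kb apart joined, the high end had 12.5 per 100 kb, the low end 11 and the gap 2, against 2.19 over the rest of 3L. The share of length inside regions as listed was 29.4% at the high end and 7.73% at the low end. Of all the sequence covered by regions in the interval, 74.7% lay at the high end, 16.3% at the low end and 9.01% in the gap.

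**Figure D1:**
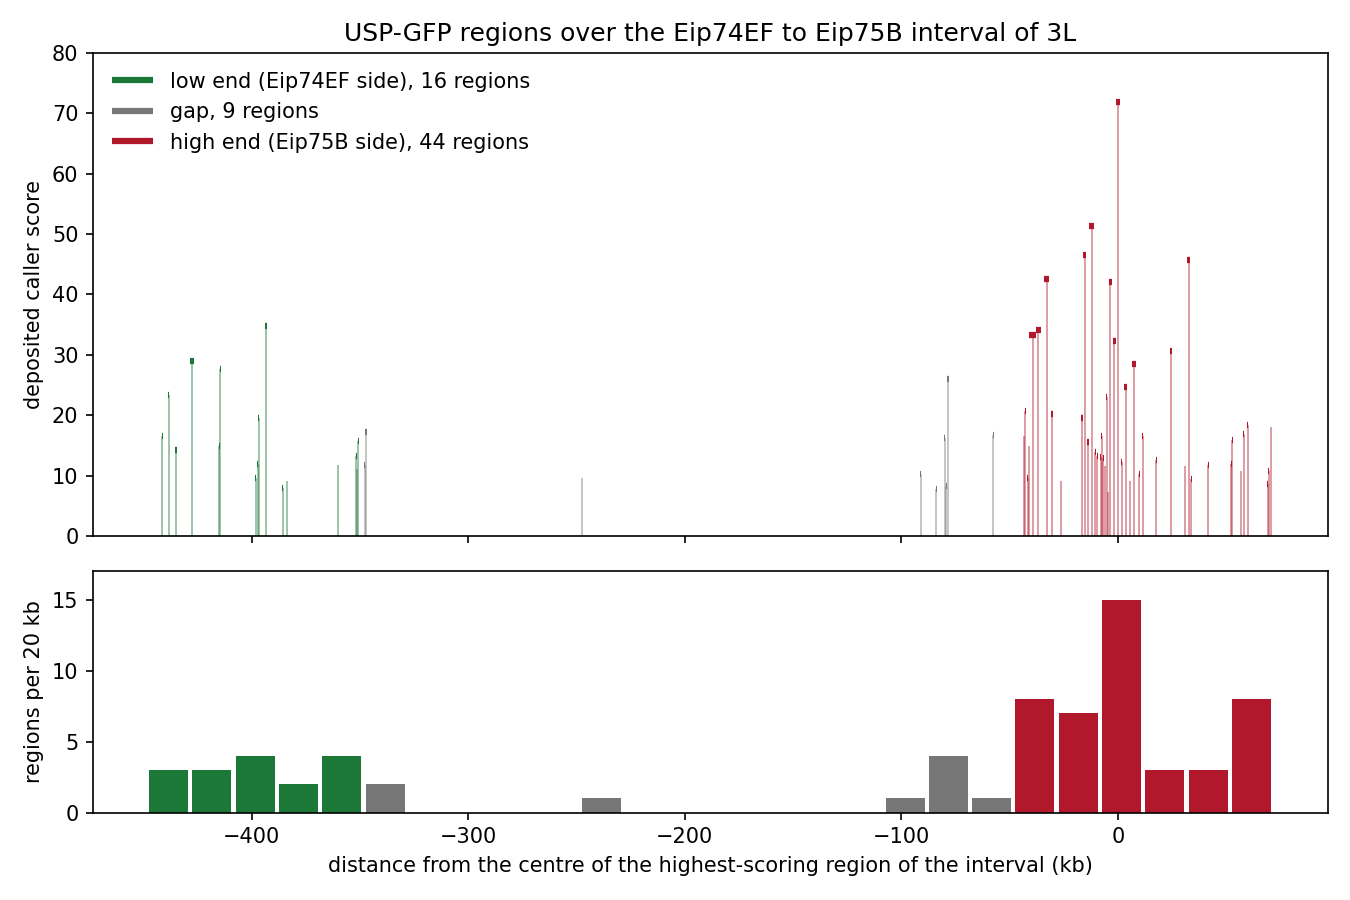
Top, the 69 regions of the interval, drawn at their deposited caller score (vertical axis) against the distance in kb from the centre of the highest-scoring region, with horizontal bars showing region width to scale. Bottom, the number of regions in bins of 20 kb. The high end reaches 15 regions in 1 bin and a score of 71.95, the low end reaches 4 regions and 34.7, and 10 of the 15 bins of the gap hold none.

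Regions were dense in the interval by the standard of the arm. It held 13.3 regions per 100 kb, against a median of 2.8 (quartiles 1.4 and 4.6, highest 9.2) over the 47 other full windows of 500 kb laid outward from its edges. Its regions covered 9.10% of its length, against a median of 1.18% and a highest value of 4.39% in the other windows. The interval ranked 1 on both measures. It ranked 2 by its highest score, and, beside the 30 windows with 10 or more regions, 3 by its median score and 8 by its median width. The windows stopped at 24070000, so the highest region of 3L, at 24462044 to 24463747 with a score of 123.08, lay in none of them. The windows with the next largest counts ran from 11050001 to 11550000 (46 regions, highest score 34.24), from 3050001 to 3550000 (33 regions, 91.99) and from 18570001 to 19070000 (30 regions, 36.59). One window held no region. The interval makes up 2.13% of the listed length of 3L, and it held 8.68% of the arm's regions and 12.2% of its covered sequence.

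**Figure D2:**
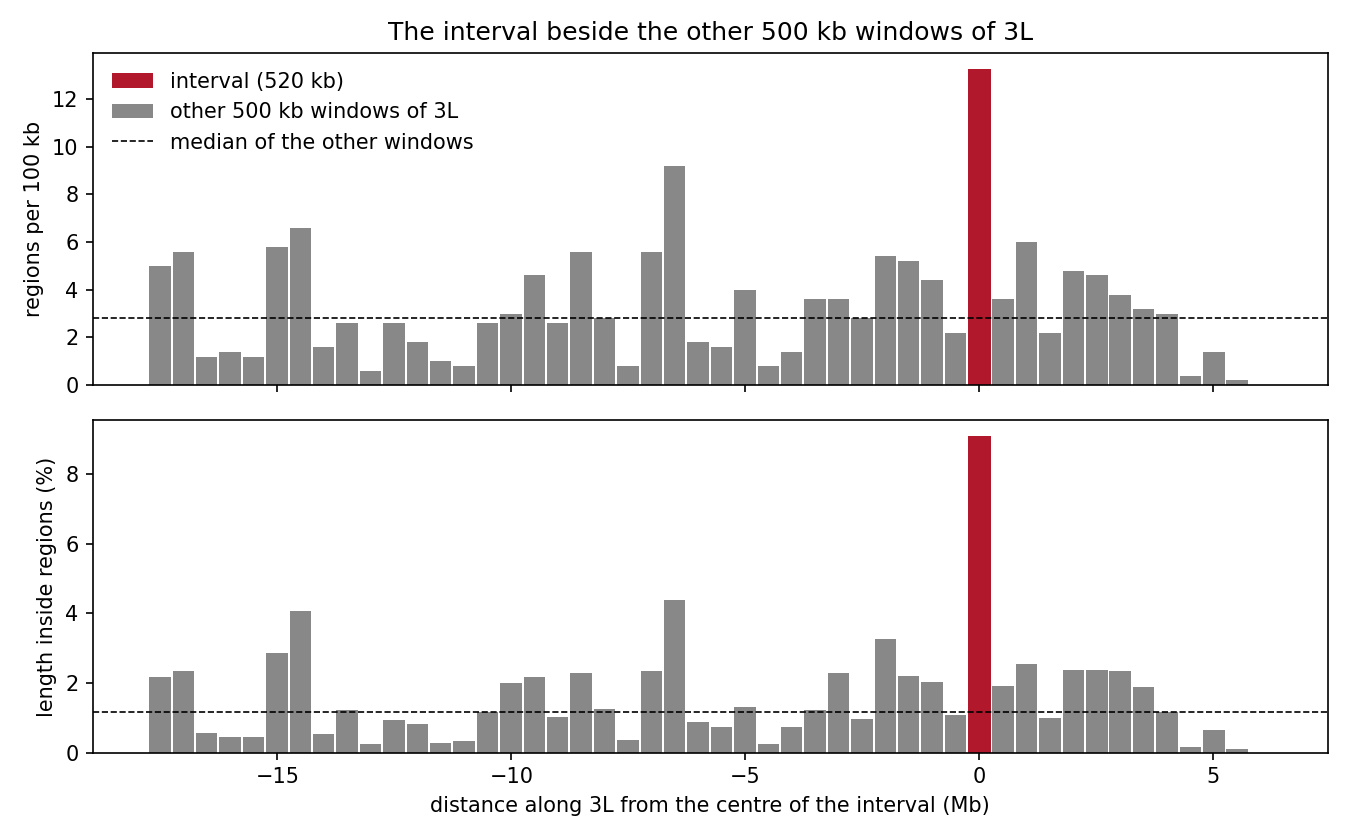
Regions per 100 kb (top) and the percentage of length inside regions (bottom) for the interval of 520 kb and for 47 other windows of 500 kb, placed by their distance in Mb along 3L. The dashed line is the median of the other windows. The interval stands at 13.3 regions per 100 kb and 9.10% of length, above every other window.

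Each part of the interval was also set beside windows of its own length on 3L. The high end, with 44 regions, exceeded all 199 other windows of 120 kb, whose median was 2 and whose highest count was 21. The low end, with 16 regions, ranked 4 beside 238 windows of 100 kb, whose median was 2 and whose highest count was 19. The gap, with 9 regions, lay close to the median of 8 in 79 windows of 300 kb. With these limits the gap had about as many regions per 100 kb as the rest of 3L. That depends on the limits: with both moved 25 kb into the ends the gap held 22 regions, or 6.29 per 100 kb. With both moved 25 kb into the gap instead, it held 6 regions.

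The score of a region is the peak caller's own value, and the file does not say which quantity it is. In the interval scores ran from 7.27 to 71.95 with a median of 15.55 (quartiles 11.6 and 22.9), against a median of 12.63 (quartiles 10.2 and 17.5) in the rest of 3L. A score of at least 20 was reached by 20 of the 69 regions, or 29.0% (Wilson 95% interval 19.6 to 40.6%), against 19.3% of the other regions of the arm (140 of 726, 16.6 to 22.3%). By part these were 15 of 44 at the high end, 4 of 16 at the low end and 1 of 9 in the gap. At a score of at least 40 there were 6 of the 44 regions at the high end. None of the 16 at the low end or of the 9 in the gap reached it. Over all of 3L it was reached by 23 of 795 regions, and the high end held 26.1% of these 23. At so low a share over the arm, none among 16 or 9 regions does not set the low end or the gap apart. The intervals treat regions as independent, which clustered regions are not.

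Part of the difference in score went with width. Regions of at least 1000 bp numbered 13 of 69 in the interval, or 18.8% (11.4 to 29.6%), against 6.06% (44 of 726) in the rest of 3L, and 11 of the 13 were at the high end. All 13 reached a score of at least 20, as did 32 of the 44 in the rest of 3L. Among regions of 200 to 400 bp the median score was 11.62 in the interval (31 regions) and 11.07 in the rest of 3L (418 regions). Among those of 400 to 1000 bp it was 16.55 (25 regions) and 16.23 (264 regions), and from 1000 bp up 34.09 (13 regions) and 26.1 (44 regions). Regions under 1000 bp thus scored close to those elsewhere on the arm, and the interval had a larger share of wide ones. Among the wide ones its median was still higher, with overlapping intervals of the medians (28.4 to 46.55 in the interval and 20.6 to 33.0 in the rest of 3L). Width and score rose together across the 69 regions (Spearman rho 0.77) and across the other 726 (rho 0.63). The caller sets both values of a region together, so these coefficients only describe the list.

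**Figure D3:**
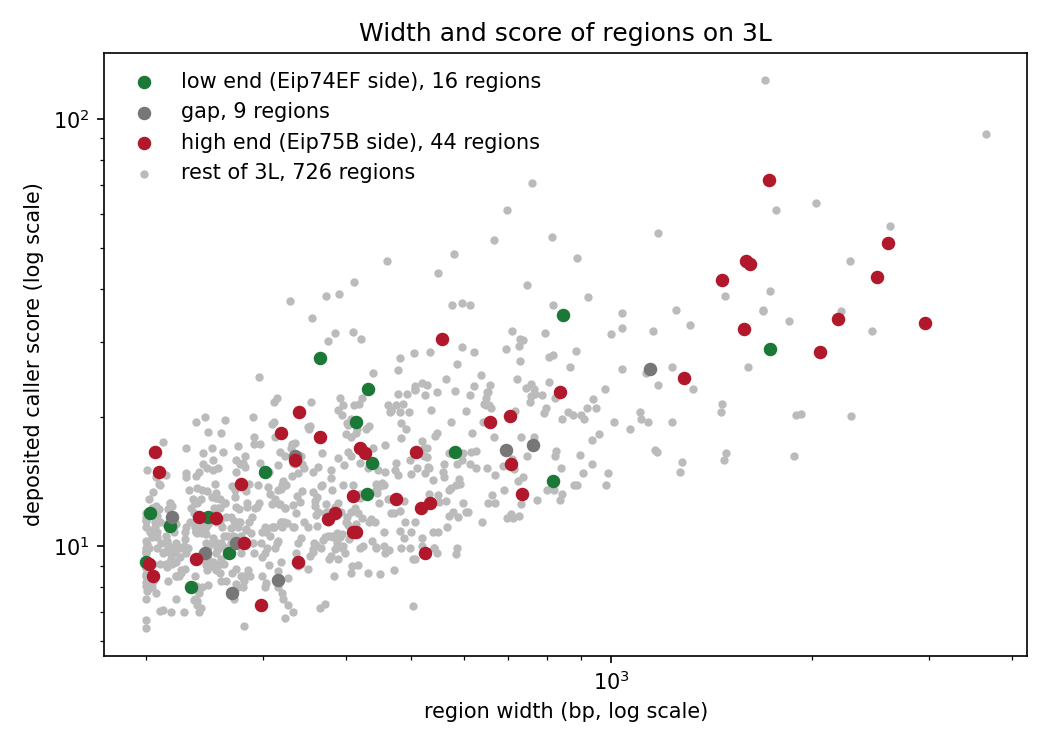
Width in bp (horizontal, log scale) and caller score (vertical, log scale) of each region on 3L, with the interval's regions coloured by part and the rest of the arm in light grey. The high end supplies 11 of the 13 regions of at least 1000 bp in the interval, and the narrow regions of all parts lie within the cloud of the arm.

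At the high end the regions formed 5 clusters, chained by steps of up to 5 kb from centre to centre, with 3 regions standing alone. The cluster with the most regions ran from 17981398 to 18010023 and held 21 regions, 8 of them at a score of at least 20. It contained the highest region of the interval, 1725 bp wide at 17997501 to 17999225 with a score of 71.95, which ranked 3 among the 795 regions of 3L. The next highest regions of the end were in the same cluster, at 17984880 to 17987486 (2607 bp, score 51.3) and at 17982108 to 17983701 (1594 bp, score 46.55), 12.2 and 15.5 kb from the highest one on the side of lower coordinates. A region at 17994065 to 17995533, 3.56 kb from the highest one on that side, had a score of 41.99. Between the region with 46.55 and that with 41.99 stood 9 narrower ones, from 255 to 837 bp wide. Their scores, from 7.27 to 22.93, were lower than those of the regions just named. They lay on both sides of the 3L median of 12.74, most of them above it.

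Many of these regions almost touched. The stretches between neighbours at the high end had a median of 609 bp, against 5122 bp in the rest of 3L. Of these 43 stretches 19 (44.2%) were at most 500 bp, against 142 of 726 (19.6%) in the rest of 3L. At the low end 4 of 15 were. When regions up to 1 kb apart were joined, 17 of the 21 regions of the cluster became 1 stretch of 21.1 kb, from 17981398 to 18002516, of which regions covered 75.1%. Elsewhere on 3L such joining gave at most 5 regions in a stretch and at most 7060 bp. On the other arms it gave up to 17 regions and up to 15428 bp, both on 3R.

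The second cluster of the high end ran from 17954881 to 17972142 and held 9 regions, 5 of them at a score of at least 20. Its highest region, at 17964099 to 17966603, was 2505 bp wide with a score of 42.64. The widest region of the interval was also here, 2966 bp at 17957401 to 17960366 with a score of 33.31, and it ranked 2 in width on 3L. Its neighbour at 17960486 to 17962673 had a score of 34.09. These 3 regions made up most of the cluster's covered length of 9.98 kb. Of the 44 regions of the high end 30 lay in its lower 60 kb, 13 of them at a score of at least 20.

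The upper 60 kb of the high end was sparser and lower. It held 14 regions, 2 of them at a score of at least 20. One was a 1618 bp region at 18030142 to 18031759 with a score of 45.63, inside a cluster of 3 regions, and the other stood alone at 18022521 to 18023077, 557 bp wide with a score of 30.59. A cluster of 5 regions from 18050368 to 18058400 had a highest score of 18.38. The last cluster, from 18067358 to 18073948, was crossed by the limit of the interval: 3 of its 5 regions lay inside, with scores up to 18.02. The last region inside, at 18068798 to 18069162, had a score of 18.02, and the first one outside, at 18070730 to 18073015, was 2286 bp wide with a score of 46.55. In the release 6 gene order Eip75B is followed on this side by CG44006, CG44005 and CG44004, and 4 genes are nested within Eip75B, among them CG32192 and CG42393.

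**Figure D4:**
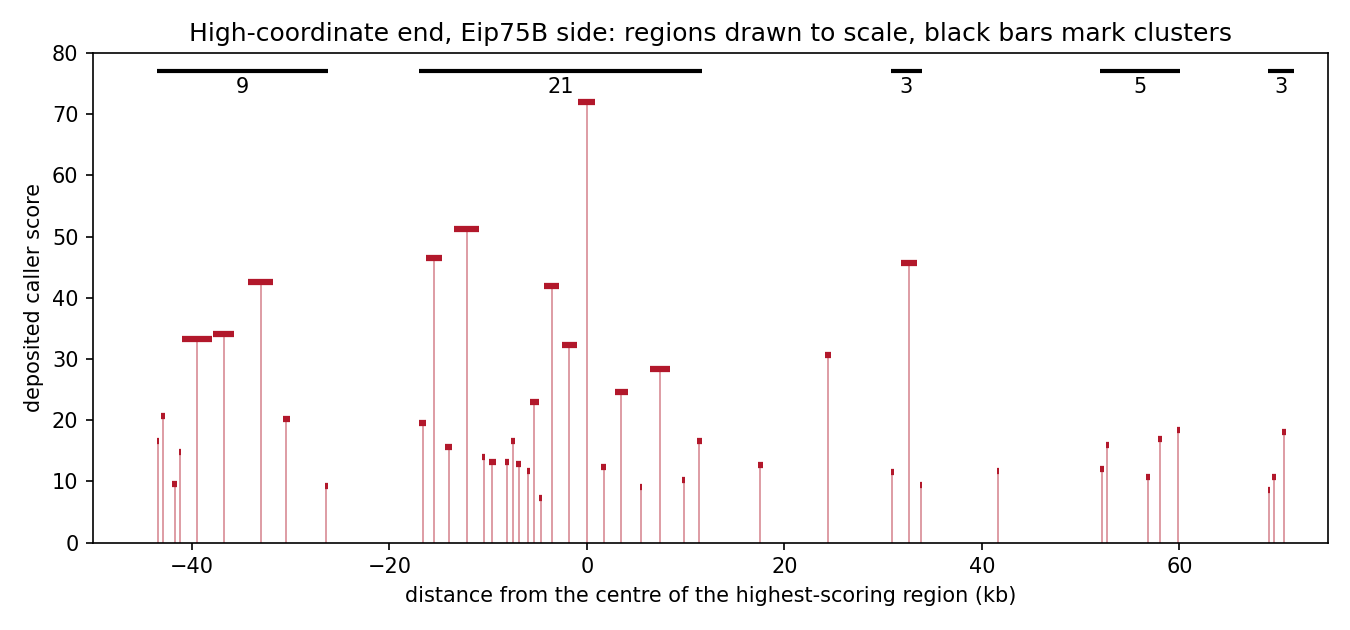
The 44 regions of the high end, drawn to scale at their caller score (vertical axis) against the distance in kb from the centre of the highest-scoring region. Black bars mark clusters, with the number of their regions inside the interval (9, 21, 3, 5 and 3). Scores above 40 occur from 33.0 kb below to 32.6 kb above the highest region.

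At the low end the regions were fewer, narrower and more widely spaced. Their median width was 389.5 bp and their median score 14.58, against 451 bp and 16.23 at the high end, and the intervals of both medians overlapped (scores 11.2 to 23.3 at the low end and 12.9 to 19.5 at the high end). The median stretch between neighbours was 2651 bp, against 609 bp at the high end. The highest region, 845 bp wide at 17604515 to 17605359, scored 34.7 and ranked 39 on 3L. It closed a cluster of 4 regions that began at 17600072, whose other scores were 9.63, 11.98 and, at 17601450 to 17601863, 19.53. The widest, and the only one of at least 1000 bp, was a single region of 1734 bp at 17570062 to 17571795 with a score of 28.97.

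The remaining high regions of the low end lay on the side of lower coordinates. A region of 365 bp at 17583610 to 17583974 scored 27.62, high for its width, beside a partner at 17583222 to 17583523 with 14.93. A cluster of 3 regions from 17556863 to 17563798 had scores of 16.57, 23.33 (at 17559886 to 17560316) and 14.23, and its first region, at 17556863 to 17557444, was also the first inside the interval. The nearest region outside that edge, at 17507086 to 17507426 with a score of 12.7, was 42.7 kb away from the limit. On this side the release 6 order places CycT, the cyclin of the elongation factor P-TEFb, next to Eip74EF, and Vps60 follows Eip74EF on the other.

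From 17612496 upward no region of the low end scored above 15.65. The scores were 8.01, 9.16 and 11.67, and then 13.27, 11.16 and 15.65 for 3 regions from 17646432 to 17647688. The last 3 formed a cluster of 5 with the first regions of the gap, at 17650412 to 17650630 (11.68) and 17650699 to 17651461 (17.27), so the limit at 17.65 Mb divides it. Among the genes that follow Eip74EF in the release 6 order is Pep, which encodes an RNA-binding protein found on ecdysone puffs, and further on are Krn, a ligand of the EGF receptor, and Crtc, a coactivator of CREB. None of these can be assigned a region here.

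The rest of the gap was nearly empty until close to the Eip75B end. Between 17651462 and 17907078, a stretch of 256 kb, there was a single region of 245 bp, at 17750808 to 17751052 with a score of 9.63. The larger of the empty stretches beside it measured 156 kb and ranked 33 among the 794 stretches between regions of 3L, so empty stretches of this size were found elsewhere on the arm too. The remaining 6 regions of the gap lay in its last 50 kb. These were at 17907079 to 17907351 (10.19), 17914393 to 17914661 (7.76), 17918121 to 17918455 (16.23), 17918854 to 17919169 (8.33), 17919299 to 17920443 (26.02) and 17940400 to 17941094 (16.77). The 1145 bp region with a score of 26.02 was the only one of the gap above 20, and it lay 78.5 kb from the highest region of the interval. In the release 6 order the genes next to Eip75B on this side are the non-coding lncRNA:CR43174 and lncRNA:CR45393.

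Clustering set the interval, mainly its high end, apart from the arm in the same descriptive sense. Of its 69 regions 43 (62.3%) belonged to clusters of 5 or more, against 137 of the other 726 (18.9%), and 8 (11.6%) stood alone, against 204 (28.1%). Most of those 43 were at the high end, in the clusters with 21, 9, 5 and 3 regions inside the interval. At the low end only the cluster of 5 divided by the limit at 17.65 Mb reached that size. No cluster elsewhere on 3L had more than 11 regions.

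For some regions the score could be read as a multiple of background. If the score is taken as a −log10 p-value, many scores fall on the steps of a Poisson upper tail with a mean of 63.82 reads. That mean was fitted on 2L and 2R as the one with the most scores on a step, 537 of 1247 scores under 40. In the interval 34 of 69 scores lay within 0.01 of a step, or 49.3% (37.8 to 60.8%), against 45.7% in the rest of 3L. The reads implied by these steps were a median 2.03 times the background in the interval (range 1.77 to 3.43) and 2.02 times in the rest of 3L (1.71 to 4.50). The highest multiples were 3.43 and 3.29, for the regions with scores of 51.3 and 46.55 in the cluster of 21, and 2.91 at the low end, for the region with a score of 34.7. The region with the highest score, 71.95, was on no step, so no multiple is given for it. The multiples restate the scores, and they are given for these 34 regions only. How many scores lay on a step by accident was not tested, so some of the multiples may be accidental.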

How the data were processed

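ChIP-seq regions of 3 ChIP and 3 input libraries were deposited by the authors as 1 list. MACS is the caller and FlyBase release 5 the build per the file headers. The tools BWA, MACS2 and CASAVA (versions 1.7.0.2 and 1.7.0.3), and the build BDGP5, are named per the submitters' processing notes. The threshold and any pooling of libraries were not given in the sources used here. In the list deposited by the authors the score has no stated meaning. From the values alone it was read as a −log10 p-value where steps are used. Implied reads are uncertain by 1.

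Starts were read as counting from 0 (1 region starts at 0), and 1 was added to each printed start. A region's centre decided its place. The limits of the ends, the windows and the list of members were chosen with earlier results of these data known. Regions named are the 6 highest and the widest of each end, all of the gap if up to 10, those at the edges and clusters of 3 or more; others were named after their values were seen. The windows matched to the length of each part, the comparison at matched width and the joining of regions on other arms were also added with the values in view. Medians have exact order-statistic intervals and shares Wilson 95% intervals. These cover counting error only. The background was searched from 20 to 130 reads over scores under 40. The code was tested on simulated data. Python 3.11.15, numpy 2.4.6, pandas 2.3.3, scipy 1.17.1 and matplotlib 3.10.9 were used. No sequence was read, because no genome of release 5 was used here, and the planned motif search in promoters was not run.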

Additional observations from a re-analysis of the deposited data

How the results depend on the processing

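Of 34 alternatives 18 left the value within 1.5 times the count, within the interval of the median or share, or at the same rank, and 16 moved it. The interval ranked 1 with windows of 520 kb, at scores from the upper quartile and after joining within 1 kb. A fixed grid of 500 kb divides the interval, so there it has no rank of its own: the pair of windows that hold it had 50 and 38 regions, against at most 45 in the others. Its 69 regions became 43 at scores from the 3L median of 12.74 and 24 from the upper quartile of 18.02. Those limits remove regions all over the arm by construction, and the interval kept a larger share than the arm as a whole. After joining regions within 500 bp and within 1 kb the 69 became 43 and 32. At scores from the upper quartile there were 18 of 44 regions at the high end, 5 of 16 at the low end and 1 of 9 in the gap. Joining within 500 bp and within 1 kb left 25 and 15 at the high end, 12 and 11 at the low end and 6 and 6 in the gap. With the limits moved 25 kb into the ends the gap held 22, because clusters then fall into it. Moved 25 kb into the gap, they gave 6 regions in the gap, 18 at the low end and 45 at the high end. Chaining at 10 kb gave a largest cluster of 36. The median score was 11.62 for regions of 200 to 400 bp, against 11.07 in the rest of 3L. The median width was 414 bp (338 to 525 bp) as listed, against 359.5 bp in the rest of 3L. It was 657 bp at scores from the 3L median, against 511 bp in the rest of 3L. After joining within 500 bp it was 582 bp, against 402 bp. The share at or above the score limit was 50.7% for a limit of 15, against 36.0% in the rest of 3L, and 15.9% for a limit of 30, against 6.47%. An upper edge at 18.08 Mb, added after seeing the data, gave 71 regions. No paired analysis was possible because all libraries share a single list, which also kept single replicates from being left out. The depth is unknown, so a stretch without regions is not shown to be unbound.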
